A study of Homo sapiens with 12 samples.

Results

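In SUM159, a breast cancer line of the triple-negative type, microRNA signals differed far less between metformin and vehicle arrays with Dicer knocked down than without the knockdown. The measure of this is the interaction: the metformin minus vehicle difference in Dicer shRNA cells, minus the same difference in control shRNA cells, on the log2 scale. It was followed in 98 of the 851 human names on the array, those with a detected signal on each of the 12 arrays. The 98 were selected on the detection flags alone, and a microRNA that dropped out of detection in any group is not among them.

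There were 4 groups of 3 arrays, one array per biological replicate: Dicer shRNA with metformin, Dicer shRNA with vehicle, control shRNA with metformin, and control shRNA with vehicle. Metformin, a biguanide used against type 2 diabetes, was given at 0.5 mM for 24 h, and the vehicle was PBS. All cells were stably infected with a PLKO.1 lentiviral vector, carrying either an shRNA against Dicer or a scrambled control shRNA, and all were grown with insulin and hydrocortisone. The number of independent infections behind each line is not given in the labels, and p-values measure the spread between the deposited replicates.

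Both metformin groups lay on one slide and both vehicle groups on the other, so the drug and the slide cannot be told apart. The interaction sets the lines against each other within a slide, so a shift common to all arrays of a slide cancels from it, while a slide effect that differs between lines does not. On both slides the Dicer shRNA arrays and the control shRNA arrays held different positions, so line and position cannot be told apart. The arrays have no probe for Dicer mRNA, and the knockdown was not checked. The source names of both metformin groups disagree with their titles, and the titles were followed.

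MicroRNAs are short RNAs that guide Argonaute proteins to partly complementary messenger RNAs, mostly through the seed at bases 2 to 8. Drosha cuts the primary transcript to a hairpin in the nucleus, and Dicer cuts the hairpin to the mature duplex in the cytoplasm. Mirtrons bypass Drosha by splicing, and the miR-320 family is known for bypassing it in another way. Several names on arrays of this age are pieces of transfer or ribosomal RNA that do not follow the Drosha and Dicer route.

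Mature sequences are shown for the microRNAs at both ends of the interaction and for the miR-320 family, whose members differ by single bases. They are RefSeq sequences on GRCh38.p14, printed 5′ to 3′ with the seed in capitals. The first 6 had the highest interactions of all 98, and the next 4 include the 3 lowest. The last pair completes the miR-320 group.
miR-21: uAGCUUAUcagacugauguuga
miR-24: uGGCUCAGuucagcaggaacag
miR-100: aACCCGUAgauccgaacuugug
miR-23a: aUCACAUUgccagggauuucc
miR-221: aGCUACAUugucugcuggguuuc
miR-222: aGCUACAUcuggcuacugggu
miR-1275: gUGGGGGAgaggcuguc
miR-320c: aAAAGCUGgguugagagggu
miR-630: aGUAUUCUguaccagggaaggu
miR-1181: cCGUCGCCgccacccgagccg
miR-320b: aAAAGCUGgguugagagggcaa
miR-320d: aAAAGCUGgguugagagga

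RefSeq places mature miR-21 at chr17:59841273-59841294 on the plus strand and miR-1275 at chr6:34000018-34000034 on the minus strand. The miR-221 and miR-222 sequences share their seed and lie on the minus strand of chromosome X, at chrX:45746180-45746202 and chrX:45747036-45747056. One copy of miR-24 (chr19:13836289-13836310, minus strand) lies beside miR-23a (chr19:13836595-13836615, minus strand), and a second copy of miR-24 is at chr9:95086064-95086085 on the plus strand. Of the 98 microRNAs, 77 (78.6%) matched a RefSeq mature sequence, under the 80% set for a comparison of base composition, so that comparison is void.

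The interaction was called for 70 of the 98 microRNAs (71.4%), in limma with a Benjamini-Hochberg adjusted p under 0.05, beside 76.4% of all 208 human microRNAs tested. It was above 0 for 21 (21.4%, beside 37.0% of those tested) and below 0 for 49 (50.0%, beside 39.4%). The share called is therefore near the background, and the direction of the calls leaned below 0. Of the other 110 tested microRNAs, 56 were called above 0 and 33 below it. Those 110 were undetected on at least 1 array, so the rule itself separates them from the 98. The median interaction was -0.68 over the 98, -0.53 over all tested and 0.64 over the 110.

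Directions depend on how arrays are scaled, because a common shift moves every interaction together. With arrays scaled to viral microRNA probes, the median of the 98 lay 1.499 higher, and the calls split into 52 above 0 and 4 below 0. With scaling to hur control features it lay 0.65 lower (17 and 67), with quantile normalization 0.32 lower (23 and 55) and with no scaling 0.23 higher (26 and 39). The deposited series matrix placed it 0.16 higher, with 25 called above 0 and 35 below. Such a common shift cancels from differences between microRNAs, apart from the dimmest signals, which were set to a floor. The difference between miR-21 and miR-1275, 7.33 on the log2 scale (161-fold), is therefore fixed under any scaling by 1 factor per array. Quantile normalization can change such differences. It gave 7.33 for this pair because it raised both, miR-21 from 4.62 to 5.27 and miR-1275 from -2.71 to -2.06. It lowered miR-222 from 2.74 to 2.06, so the difference between miR-21 and miR-222 did not hold. For miR-21 and miR-1275 the series matrix gave 8.26, and adding 16 to each signal instead of flooring gave 6.53. Signs below are for arrays scaled to their 75th percentile over the 98 microRNAs.

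Among the 21 called above 0, 19 kept that sign under all 6 other scalings. The exceptions were miR-720, at -0.19 with hur scaling, and miR-30d, at -0.02 with quantile normalization. The call itself was kept under all 6 by 17, the others being miR-720, miR-30d, miR-22 and miR-181b. The 6 are not separate checks, since no scaling and the 75th percentile over all human names gave the same values. Hur scaling moved the median of the 98 by -0.65, while the hur features themselves had a median interaction of 2.84. A scaling that removed all of that was not tried. Among the 49 called below 0, the sign was kept by 13 with viral probe scaling, by 47 with quantile normalization and by all 49 with hur scaling. The 4 that stayed called below 0 under every scaling were miR-1275, miR-320c, miR-630 and miR-1181.

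Most of the interaction came with a small metformin difference in Dicer shRNA cells beside a large one in control shRNA cells. In Dicer shRNA cells the metformin differences of the 98 ran from -1.15 to 1.20 (SD over microRNAs 0.49, median 0.17). In control shRNA cells they ran from -5.76 to 3.29 (SD 1.89, median 0.93). The difference was smaller in size in Dicer shRNA cells for 94 of 98. The differences of both lines had the same sign for 81 and opposite signs for 17.

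Across the 98 microRNAs the Dicer shRNA difference was 0.23 of the control shRNA difference as a fitted slope, with an intercept of -0.01. Pearson's r was 0.88 and Spearman's rho 0.85 over the 98. No array enters both differences, but both rest on the same 2 slides and one scaling, and the microRNAs are not independent replicates. As a description, the microRNAs kept much of their order in Dicer shRNA cells, over a narrower range.

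**Figure D1:**
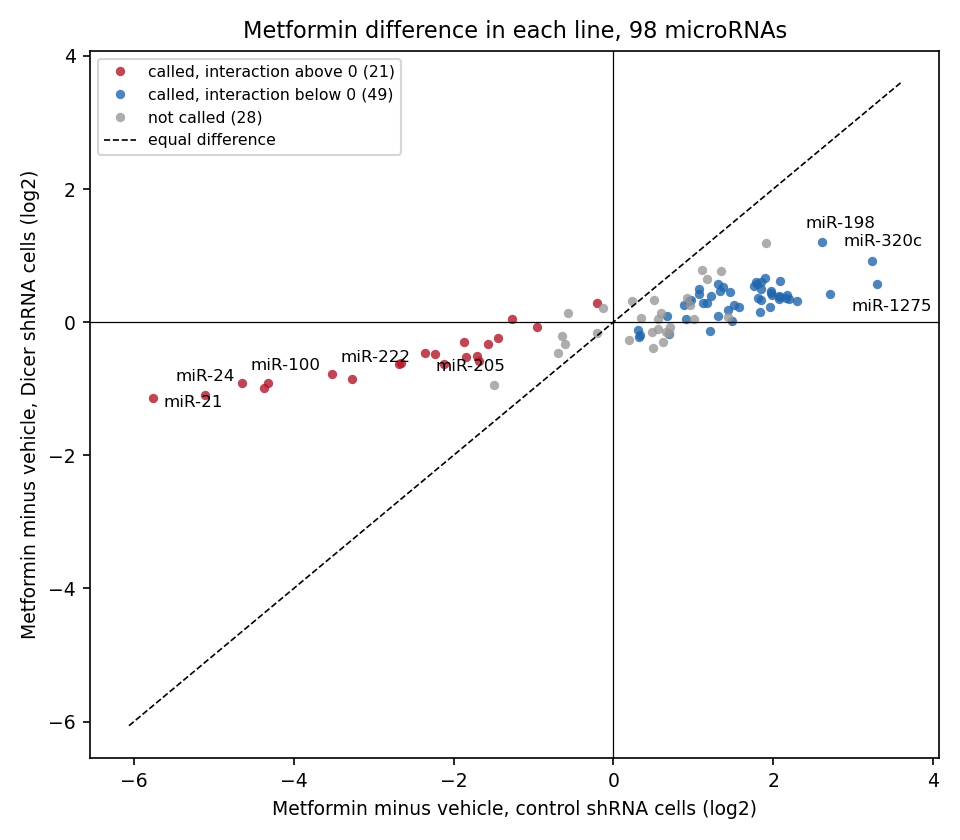
Metformin minus vehicle difference (log2) in Dicer shRNA cells on the y axis and in control shRNA cells on the x axis, 1 point for each of 98 microRNAs, with the dashed line where both are equal. The points span -1.15 to 1.20 on the y axis against -5.76 to 3.29 on the x axis; red and blue mark the 21 and 49 calls above and below 0 with 75th percentile scaling, where viral probe scaling gives 52 and 4.

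Most microRNAs called above 0 were far lower with metformin than with vehicle on control shRNA arrays and less so on Dicer shRNA arrays. Their median metformin difference was -0.58 in Dicer shRNA cells and -2.23 in control shRNA cells. For 17 of the 21 the group means ran in one order, with Dicer shRNA with vehicle and then Dicer shRNA with metformin between an upper extreme of control shRNA with vehicle and a lower extreme of control shRNA with metformin. The other 4 were miR-205, miR-1274a, miR-181b and miR-720. Metformin arrays lay below vehicle arrays without overlap for 17 of the 21 in Dicer shRNA cells and for 20 in control shRNA cells, and miR-720 lay above without overlap in Dicer shRNA cells. The 21 were picked by an interaction built from these same differences, so the order and overlap counts describe the calls and do not test them. No share over all tested microRNAs is given beside these counts, so they cannot be read as particular to the 21.

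The highest interaction was that of miR-21, a microRNA known for high levels in many tumours. Its scaled signals were 72.3, 101 and 61.6 with metformin and 140.1, 177 and 195 with vehicle in Dicer shRNA cells, against 14.1, 27.2 and 14.4 with metformin and 954, 869 and 1059 with vehicle in control shRNA cells. All 4 groups stood apart without overlap, with both Dicer shRNA groups between the control shRNA groups. The interaction was 4.62 ± 0.38 (SE), a 24.5-fold difference between the metformin ratios, with an adjusted p of 2.9e-06 in limma. Leaving out 1 array at a time it ran from 4.42 to 4.93, and over the other alternatives it ran from 3.84 to 6.15.

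Second was miR-24, which shares a cluster with miR-23a and miR-27a and has known targets in the cell cycle. Its signals were 71.3, 82.3 and 50.1 with metformin and 125, 145 and 159.7 with vehicle in Dicer shRNA cells, against 11.5, 23.1 and 15.1 with metformin and 526, 530.2 and 591 with vehicle in control shRNA cells. Signals of miR-23a, made from the same primary transcript as one of the miR-24 copies, were 78.5, 76.8 and 73.0 with metformin and 141, 130.5 and 162 with vehicle in Dicer shRNA cells, against 21.8, 29.2 and 29.8 with metformin and 498, 522 and 575 with vehicle in control shRNA cells. For both, Dicer shRNA arrays lay below control shRNA arrays with vehicle and above them with metformin, without overlap. The interactions were 4.01 ± 0.36 for miR-24 (adjusted p = 4.99e-06, limma) and 3.40 ± 0.19 for miR-23a (adjusted p = 2.22e-07, limma), so neighbours on chromosome 19 differed by 0.62, a difference that was not tested.

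The paired microRNAs miR-221 and miR-222, known for targeting the cell cycle inhibitor CDKN1B and for high levels in basal-like breast cancer, moved alike. Signals of miR-221 were 36.8, 50.3 and 31.3 with metformin and 70.5, 84.1 and 77.2 with vehicle in Dicer shRNA cells, against 4.4, 11.1 and 9.3 with metformin and 152, 159 and 167 with vehicle in control shRNA cells. For miR-222 they were 92.7, 96.0 and 92.1 with metformin and 146, 173 and 165 with vehicle in Dicer shRNA cells, against 18.6, 27.3 and 23.0 with metformin and 265, 257 and 259 with vehicle in control shRNA cells. Both were lowest on control shRNA arrays with metformin and highest on control shRNA arrays with vehicle, and no 2 groups overlapped. Interactions of 3.38 ± 0.43 (adjusted p = 6.57e-05) and 2.74 ± 0.19 (adjusted p = 6.95e-07) came from limma for miR-221 and miR-222, and the control shRNA metformin arrays of miR-221 spread from 4.4 to 11.1.

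In the miR-99/100 and miR-125 families, whose miR-99/100 branch is known for targeting MTOR, 2 members were on all arrays and both were called above 0. Beside them, 37.0% of all tested and 21.4% of the 98 were called above 0. Signals of miR-100 were 65.1, 78.7 and 57.1 with metformin and 127, 127 and 121 with vehicle in Dicer shRNA cells, against 6.76, 16.2 and 13.3 with metformin and 285, 289 and 275 with vehicle in control shRNA cells. For miR-99b they were 76.2, 73.0 and 55.8 with metformin and 102, 104 and 88.0 with vehicle in Dicer shRNA cells, against 34.0, 37.0 and 36.2 with metformin and 133, 131 and 119.8 with vehicle in control shRNA cells. The 2 share the seed ACCCGUA, and the interaction was 3.73 ± 0.38 for miR-100 and 1.31 ± 0.18 for miR-99b (adjusted p = 1.31e-05 and 0.000111, limma). The cluster partner of miR-99b, miR-125a-3p, had an interaction of -1.52 ± 0.27 (adjusted p = 0.000533, limma), on the other side of 0, where it stays with quantile normalization and hur scaling but not with viral probe scaling.

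Several other known families had few members on all arrays. Their calls, all above 0, stand beside 37.0% of all tested and 21.4% of the 98 called above 0. Of the miR-17/92 clusters, which carry a MYC-driven oncogenic microRNA group, the one such member was miR-92a, with 150.2 ± 25.6 with metformin and 231 ± 19.4 with vehicle in Dicer shRNA cells, against 84.4 ± 10.6 with metformin and 364 ± 17.4 with vehicle in control shRNA cells (SD, n = 3) and an interaction of 1.48 ± 0.20 (adjusted p = 0.000109, limma). The miR-30 and miR-26 families had miR-30a at 1.58 ± 0.14 and miR-30d at 0.88 ± 0.13, both called. The miR-181 family had miR-181a at 1.20 ± 0.18 and miR-181b at 1.10 ± 0.20, both called, of which miR-181b lost its call with hur scaling (0.42, adjusted p = 0.0974, limma). The Dicer minus control difference of miR-181a was 1.11 with metformin and -0.09 with vehicle, and that of miR-181b was 1.11 with metformin and 0.02 with vehicle.

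The let-7, miR-29, miR-130 and miR-301, miR-15/16 with miR-103 and miR-107, and p53-linked lists had no microRNA detected on all 12 arrays. Their absence is the detection rule at work and is not a lack of response, since a microRNA that fell out of detection in any group is left out. The metabolic list had 1, miR-378, which lies in PPARGC1B and was not called (0.44 ± 0.22).

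Of the breast epithelial markers, miR-205 was detected on all arrays, and miR-200a, miR-200b, miR-200c, miR-141 and miR-203 on none. The signals of miR-205 were 94.2, 105 and 76.8 with metformin and 124, 123 and 129 with vehicle in Dicer shRNA cells, against 106, 131 and 134 with metformin and 645, 620.0 and 629.5 with vehicle in control shRNA cells. The Dicer shRNA metformin, Dicer shRNA vehicle and control shRNA metformin arrays lay between 76.8 and 134, and the control shRNA vehicle arrays stood apart above them. The interaction of 1.90 ± 0.18 (adjusted p = 8.43e-06, limma) thus came with a Dicer minus control difference that stayed below 0 under both treatments, -0.43 with metformin and -2.33 with vehicle.

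The basal or mesenchymal-like marker list summed to 280 to 393 on Dicer shRNA arrays with metformin, 590 to 716 on Dicer shRNA arrays with vehicle, 89 to 122 on control shRNA arrays with metformin and 1860 to 2090 on control shRNA arrays with vehicle. Of its 6 microRNAs 5 were on all arrays, 4 of them called above 0 and 1, miR-155, below 0. Over all tested, 37.0% were called above 0 and 39.4% below 0, and over the 98 these shares were 21.4% and 50.0%. Among blood markers, miR-142-3p, miR-142-5p, miR-451, miR-144 and miR-150 were never detected. The other 2 summed to 0 on every array except the control shRNA metformin arrays, with 15.2 to 20.4. Of 8 markers of other tissues 2 were detected, summing to 7.74 to 21.1 and 0 to 6.52 in Dicer shRNA cells with metformin and vehicle, and to 24.9 to 29.9 and 0 to 4.41 in control shRNA cells with metformin and vehicle. Their part in the interaction was not tested.

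**Figure D2:**
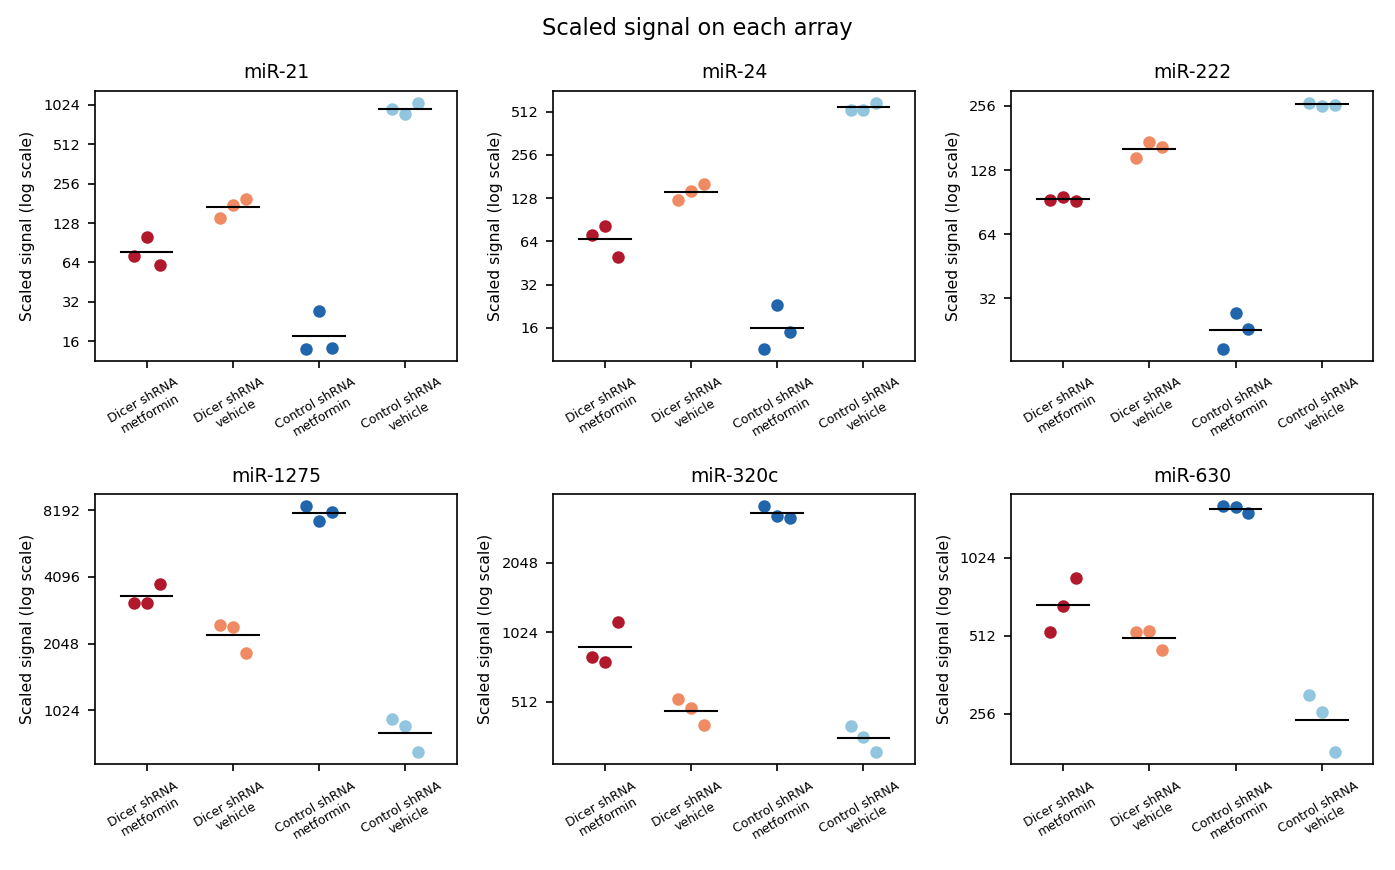
Scaled signal (log axis) of 6 microRNAs on each array, with 3 points per group and a black line at the group's mean of log2 values. The upper row (miR-21, miR-24, miR-222) is lowest and the lower row (miR-1275, miR-320c, miR-630) highest on control shRNA arrays with metformin, and both Dicer shRNA groups lie between the control shRNA groups in each panel.

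The microRNAs called below 0 showed the mirror arrangement. Their median metformin difference was 0.37 in Dicer shRNA cells and 1.76 in control shRNA cells. For 42 of the 49 the means ran from control shRNA with metformin at the top, through Dicer shRNA with metformin and Dicer shRNA with vehicle, to control shRNA with vehicle at the bottom. Metformin arrays lay above vehicle arrays without overlap for 25 of the 49 in Dicer shRNA cells and for 49 of 49 in control shRNA cells. The 49 were likewise picked by their interaction, so these counts are a description and no test. The matching share over all tested microRNAs is not given, so the counts cannot be read as particular to the 49. Of the 49, 3 lay below -2, while 9 of the 21 on the other side lay above 2.

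The lowest interaction belonged to miR-1275, one of the bright features. Its signals were 3134, 3128 and 3817 with metformin and 2484, 2438 and 1852 with vehicle in Dicer shRNA cells, against 8541, 7346 and 8015 with metformin and 932, 865 and 661 with vehicle in control shRNA cells. The Dicer shRNA arrays lay between the control shRNA arrays with metformin, which were highest, and those with vehicle, which were lowest. The interaction was -2.71 ± 0.23 (adjusted p = 3.56e-06, limma), with a metformin difference of 0.58 in Dicer shRNA cells and 3.29 in control shRNA cells.

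Of the others at this end, miR-630, known for its induction in cisplatin-treated cells, had signals of 532, 669.7 and 856 with metformin and 529.6, 534 and 452 with vehicle in Dicer shRNA cells, against 1620.1, 1611 and 1530.2 with metformin and 303, 261 and 182 with vehicle in control shRNA cells. Its interaction was -2.29 ± 0.29 (adjusted p = 6.67e-05, limma). The same arrangement held for miR-1181, with 325, 356 and 439 with metformin and 317, 296 and 277 with vehicle in Dicer shRNA cells, against 577, 540.2 and 645 with metformin and 122, 129 and 106 with vehicle in control shRNA cells. In both, Dicer shRNA arrays were above control shRNA arrays with vehicle and below them with metformin. The interaction of miR-1181 was -1.98 ± 0.19 (adjusted p = 7.66e-06, limma). The next were miR-135a* (-1.84 ± 0.21), miR-939 (-1.80 ± 0.20), miR-1915 (-1.77 ± 0.24), miR-671-5p (-1.73 ± 0.32), miR-575 (-1.72 ± 0.33) and miR-663 (-1.70 ± 0.25), all called, and each between -0.31 and -0.17 with viral probe scaling.

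**Figure D3:**
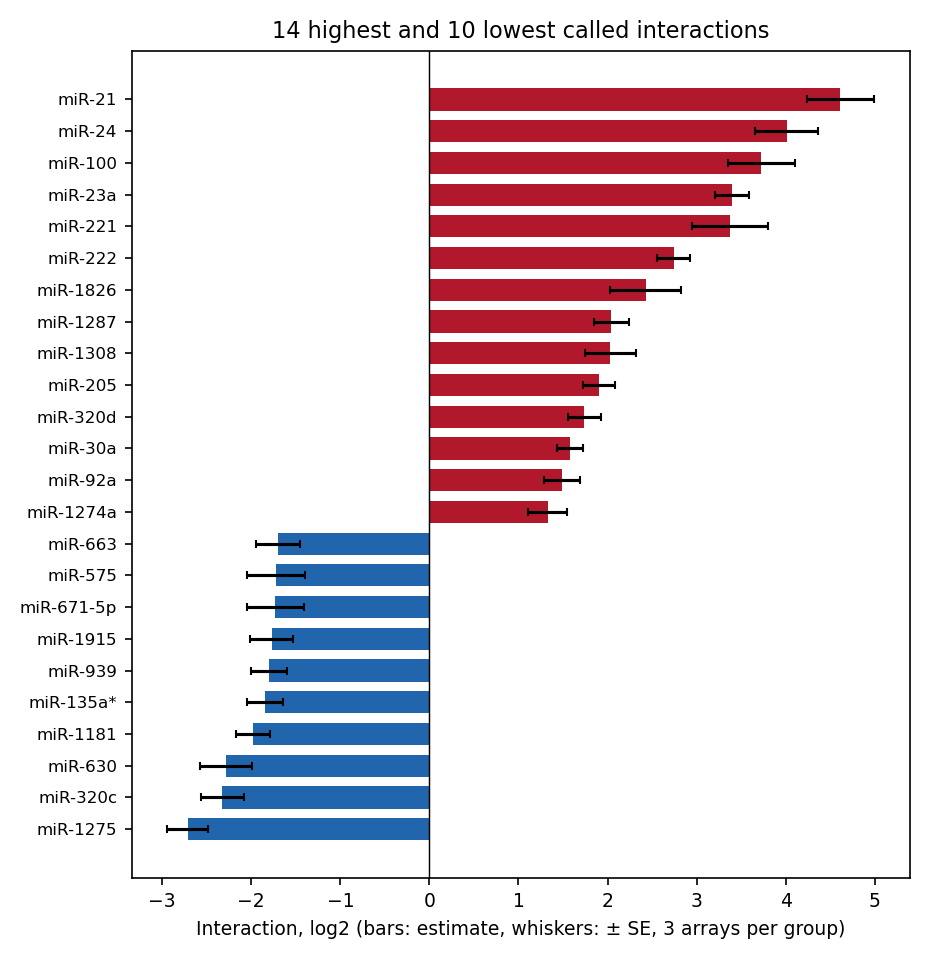
Interaction (log2) of the 14 highest and 10 lowest called microRNAs, with bars for the estimate and whiskers for ± SE from 3 arrays per group. The bars run from 4.62 for miR-21 to -2.71 for miR-1275. Viral probe scaling raises every bar, so the 14 above 0 cannot change side under it. The 10 below 0 stay below, but miR-135a*, miR-939, miR-1915, miR-671-5p, miR-575 and miR-663 lose their call.

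The miR-320 family held both directions within near-identical sequences. The family is known for being made without Drosha and needing Dicer, but the route of each member was not tested. Of its 4 members, miR-320d was called above 0, miR-320c and miR-320a below 0, and miR-320b was not called. Their median was -0.27, beside -0.53 over all tested. Of all tested, 37.0% were called above 0 and 39.4% below 0.

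Signals of miR-320d were 51.4, 59.7 and 46.5 with metformin and 70.9, 74.5 and 74.1 with vehicle in Dicer shRNA cells, against 24.6, 24.9 and 32.6 with metformin and 123, 123 and 134 with vehicle in control shRNA cells. For miR-320c they were 801, 764 and 1135 with metformin and 527, 481 and 405 with vehicle in Dicer shRNA cells, against 3599, 3280.2 and 3216 with metformin and 402, 359 and 309.7 with vehicle in control shRNA cells. These 2 ran in opposite order, with control shRNA metformin arrays lowest for miR-320d and highest for miR-320c, and Dicer shRNA arrays between in both. The interactions were 1.74 ± 0.18 for miR-320d (adjusted p = 1.74e-05) and -2.32 ± 0.24 for miR-320c (adjusted p = 1.41e-05), both from limma, 4.07 apart.

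Signals of miR-320b were 139.8, 146 and 118 with metformin and 165, 159 and 128 with vehicle in Dicer shRNA cells, against 134, 124 and 132 with metformin and 160.3, 157 and 133 with vehicle in control shRNA cells. Those of miR-320a averaged 132 ± 2.91 with metformin and 124 ± 14.5 with vehicle in Dicer shRNA cells, against 138 ± 8.92 with metformin and 87.0 ± 15.5 with vehicle in control shRNA cells (SD, n = 3). The groups of miR-320b overlapped throughout, and those of miR-320a differed mainly by lower signals on control shRNA arrays with vehicle. Interactions were 0.05 ± 0.18 for miR-320b (adjusted p = 0.81, limma, not called) and -0.58 ± 0.20 for miR-320a (adjusted p = 0.0227, limma). The sign of miR-320a turns with viral probe scaling (0.95) and that of miR-320b with hur scaling (-0.63) and quantile normalization (-0.47).

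All 3 sequences printed for the family share the seed AAAGCUG. Counted from the 5′ end of miR-320c, the first 18 bases are shared with miR-320d and the single difference is G19A, while the first 19 are shared with miR-320b and the difference is U20C. miR-320c has 20 bases, miR-320d 19 and miR-320b 22. Probes for sequences this close may share signal, so the values of single members are uncertain, and the difference between them was not tested. miR-320a is named without its sequence.

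**Figure D4:**
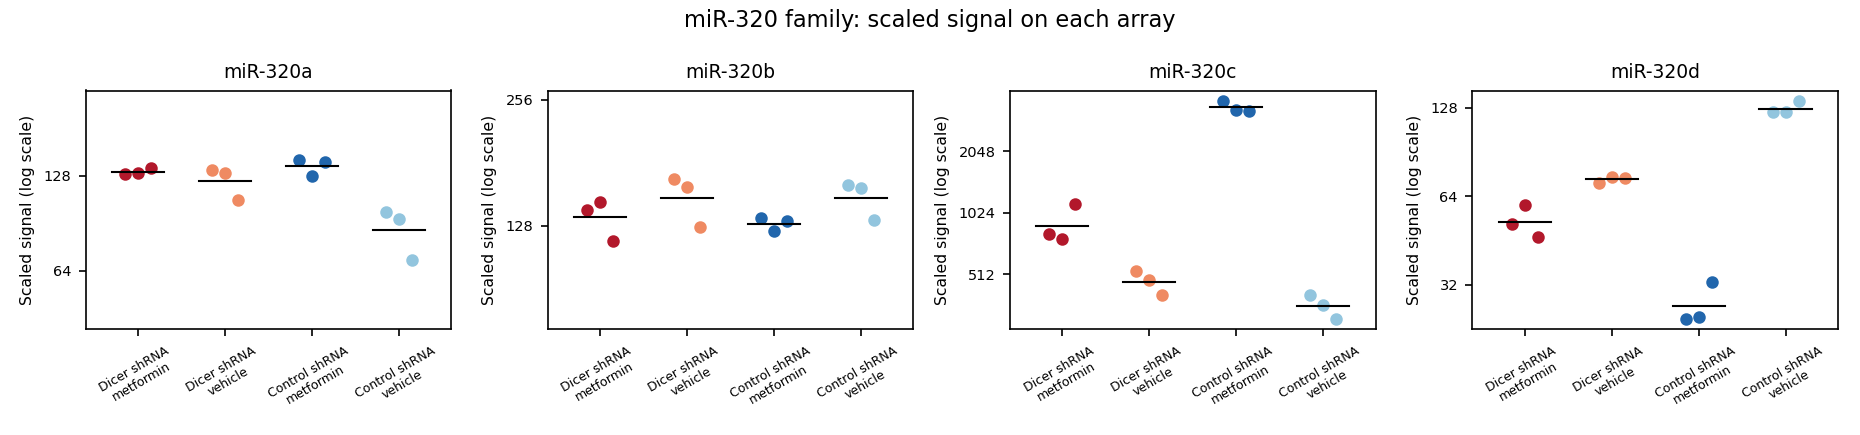
Scaled signal (log axis) of the 4 miR-320 microRNAs on each array, with 3 points per group and a black line at the group's mean of log2 values. Control shRNA arrays with metformin hold the highest values of miR-320c (3216 to 3599) and the lowest of miR-320d (24.6 to 32.6), and the 4 groups of miR-320b overlap.

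As a class, mirtrons are spliced rather than cut by Drosha and still pass through Dicer, but the route of each name listed here was not tested. The list leaves out miR-877*, counted below with the passenger strands and not called (-0.81 ± 0.39, adjusted p = 0.0831, limma). Of the 10 listed names on all arrays, 9 were called below 0 and 1, miR-1236, was not called, beside 39.4% of all tested and 50.0% of the 98 called below 0. Their median was -1.26, beside -0.53 over all tested. The largest in size was miR-1224-5p, with 63.1, 56.4 and 72.6 with metformin and 58.3, 49.9 and 39.5 with vehicle in Dicer shRNA cells, against 94.9, 78.0 and 91.3 with metformin and 23.1, 23.5 and 16.7 with vehicle in control shRNA cells. Its interaction was -1.68 ± 0.26 (adjusted p = 0.000225, limma). The smallest in size was that of miR-1225-5p, -0.58 ± 0.20 (adjusted p = 0.0233, limma). With viral probe scaling 7 of the 10 lie above 0, the exceptions being miR-1236 (-0.24), miR-1224-5p (-0.15) and miR-1226* (-0.04), and with quantile normalization miR-1225-5p lies at 0.37.

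Both arms were measured for miR-1224 and miR-1225. The 3p and 5p arms had interactions of -1.35 ± 0.37 and -1.68 ± 0.26 for miR-1224, and of -0.83 ± 0.25 and -0.58 ± 0.20 for miR-1225. All 4 were called below 0. The 3p arm of miR-1224 was dim, between 2.2 and 9.65, and some of its arrays lay under the floor.

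Mature miR-21 had the highest interaction, while its passenger strand miR-21* averaged 153 ± 18.2 with metformin and 123 ± 23.6 with vehicle in Dicer shRNA cells, against 178 ± 12.6 with metformin and 91.2 ± 17.2 with vehicle in control shRNA cells (SD, n = 3), with an interaction of -0.64 ± 0.26 (adjusted p = 0.0429, limma). miR-21* was thus higher with metformin in control shRNA cells, where miR-21 was lower. With viral probe scaling miR-21* lay at 0.89, on the same side of 0 as miR-21, and the difference between the arms was not tested. Both arms of miR-574 were also on all arrays, and neither miR-574-5p (0.70 ± 0.34) nor miR-574-3p (-0.29 ± 0.22) was called. The call of miR-21* held in 4 of the 12 fits that each left out 1 array, with an adjusted p of up to 0.0940 in limma. Of the 9 passenger strands on all arrays, 6 were called below 0 and 3 were not called, beside 39.4% of all tested and 50.0% of the 98 called below 0. Their median was -0.64 beside -0.53 over all tested, and the lowest was miR-135a* at -1.84 ± 0.21. With viral probe scaling 7 of the 9 lie above 0, and with quantile normalization and hur scaling none.

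Names that are pieces of transfer RNA do not pass through Drosha. Of 6 such names, miR-1308, miR-1274a and miR-720 were called above 0 and miR-1260, miR-1280 and miR-1274b were not called, with a median of 0.36 beside -0.53 over all tested, and hur scaling leaves 2 of the 6 above 0. That count of 3 in 6 stands beside 37.0% of all tested called above 0. Signals of miR-1308 were 199.8, 232 and 159.9 with metformin and 272, 325 and 303 with vehicle in Dicer shRNA cells, against 48.8, 71.7 and 86.1 with metformin and 422, 402 and 439 with vehicle in control shRNA cells. Those of miR-1274a were 159.8, 177 and 155 with metformin and 163, 154 and 156 with vehicle in Dicer shRNA cells, against 102, 139.9 and 88.5 with metformin and 282, 269 and 235 with vehicle in control shRNA cells. Both were lowest on control shRNA arrays with metformin, with interactions of 2.03 ± 0.29 for miR-1308 and 1.33 ± 0.22 for miR-1274a (adjusted p = 0.000126 and 0.000371, limma).

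A namesake of miR-1274a, miR-1274b, had 379.6, 454 and 398 with metformin and 245, 275 and 202 with vehicle in Dicer shRNA cells, against 877, 863 and 658 with metformin and 395, 409 and 307 with vehicle in control shRNA cells. It was higher with metformin in both lines, and its interaction was -0.33 ± 0.24 (adjusted p = 0.21, limma), above 0 in the series matrix (0.24) and with viral probe scaling (1.20). Related sequences may share probe signal, so these values are uncertain. For miR-720 the interaction was 0.49 ± 0.17 (adjusted p = 0.024, limma), the one call with a metformin difference of larger size in Dicer shRNA cells (0.29) beside control shRNA cells (-0.20). Leaving out 1 array at a time, the adjusted p of miR-720 reached 0.0581 in limma.

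Pieces of longer structural RNAs fell on both sides. The brightest name, miR-923, a piece of 28S ribosomal RNA that took 77.7% to 84.3% of the human signal, had an interaction of -0.86 ± 0.12 (adjusted p = 0.000126, limma). Its metformin difference was 0.04 in Dicer shRNA cells and 0.90 in control shRNA cells. With quantile normalization the interaction of miR-923 is 0, and with viral probe scaling 0.67. miR-1826, a withdrawn name, had 36.1, 71.2 and 55.2 with metformin and 77.5, 110.4 and 96.7 with vehicle in Dicer shRNA cells, against 9.19, 14.7 and 8.93 with metformin and 122, 82.1 and 109 with vehicle in control shRNA cells, and an interaction of 2.43 ± 0.40 (adjusted p = 0.000371, limma).

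Of the late-annotated names, among them miR-1181, miR-1275 and miR-1308, 25 were on all arrays, of which 3 were called above 0 and 16 below, with a median of -0.88 beside -0.53 over all tested. With viral probe scaling 20 of the 25 lie above 0. Names in the range from miR-548 to miR-671 had 15, of which 11 were called below 0 and 4 were not called. Their median was -1.44 beside -0.53 over all tested, and with viral probe scaling 10 of the 15 lie above 0. Beside the counts of both lists, 37.0% of all tested and 21.4% of the 98 were called above 0, and 39.4% and 50.0% below 0. The lists overlap with the mirtrons, the transfer RNA pieces and the passenger strands. The chromosome 19 cluster had miR-520b at -1.22 ± 0.24, called. In the imprinted chromosome 14 cluster miR-134 was called (-1.25 ± 0.34) and miR-485-3p (-0.86 ± 0.46) and miR-494 (0.28 ± 0.14) were not. Viral probe scaling puts miR-520b, miR-134 and miR-485-3p above 0, and hur scaling puts miR-494 below 0.

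With the marker lists set aside, 25 of the 98 microRNAs were in no list. Of these 25, 3 were called above 0, 11 below 0 and 11 not called, with a median of -0.78 beside -0.53 over all tested. Over all tested, 37.0% were called above 0 and 39.4% below 0. The 3 above 0 were miR-205, miR-151-3p (1.25 ± 0.18) and miR-22 (1.20 ± 0.25). Signals of miR-22, known for targeting the estrogen receptor alpha message, were 237, 248 and 249 with metformin and 267, 294 and 306 with vehicle in Dicer shRNA cells, against 148, 165 and 262 with metformin and 503, 489 and 520.2 with vehicle in control shRNA cells. One control shRNA metformin array stood apart within its group at the level of the Dicer shRNA arrays, and the adjusted p was 0.00177 in limma. Leaving out 1 array at a time, the interaction of miR-22 ran from 1.04 to 1.45 and stayed called.

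Of 7 called microRNAs whose metformin difference had opposite signs in the lines, miR-155 is the best known, an NF-kB-induced microRNA of inflammation and invasion. Its signals were 21.4, 22.3 and 20.9 with metformin and 22.1, 26.6 and 21.4 with vehicle in Dicer shRNA cells, against 45.2, 40.1 and 42.2 with metformin and 37.0, 32.6 and 33.2 with vehicle in control shRNA cells. Dicer shRNA arrays lay below control shRNA arrays under both treatments without overlap, and the metformin difference was -0.11 in Dicer shRNA cells and 0.31 in control shRNA cells. The interaction was -0.42 ± 0.15 (adjusted p = 0.0238, limma), and 1 of the 12 fits without an array lost the call, at an adjusted p of 0.0542. The call of miR-155 below 0 held in 2 of the 6 other scalings: it was lost with no scaling (-0.20, adjusted p = 0.265) and with median scaling (adjusted p = 0.0655), and with viral probe scaling miR-155 was called above 0 (1.11, adjusted p = 0.00374), all in limma. It was also lost in the series matrix (-0.34, adjusted p = 0.142, limma) and with no filter on undetected names (adjusted p = 0.0651, limma). The other 6 were miR-1274a, miR-720, miR-345, miR-584, miR-548c-3p and miR-1224-3p. None of the 7 had a called metformin difference in Dicer shRNA cells (adjusted p of 0.105 to 0.977, limma). Their sign in that line is therefore uncertain, and the calls do not show opposite responses.

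The interaction nearest to 0 was that of miR-320b, followed by miR-1305 (0.09 ± 0.37), miR-1280 (-0.19 ± 0.24), miR-1260 (0.22 ± 0.25), miR-494 and miR-574-3p (-0.29 ± 0.22). None of the 6 was called with the main scaling. The bright miR-494 had 4596, 4989.5 and 4385 with metformin and 6062, 5896 and 5529 with vehicle in Dicer shRNA cells, against 2923, 3352 and 3147 with metformin and 5048, 5026 and 4246 with vehicle in control shRNA cells. It was lower with metformin in both lines (-0.32 in Dicer shRNA cells and -0.60 in control shRNA cells). The interaction of miR-494 was called above 0 in 4 of the 6 other scalings, among them no scaling (0.50, adjusted p = 0.016), quantile normalization (1.595, adjusted p = 0.000149) and viral probe scaling (1.81, adjusted p = 9.72e-05), in the series matrix (0.81, adjusted p = 0.0323) and with array weights (0.39, adjusted p = 0.00685), all in limma. The 28 microRNAs not called were dimmer and less precise than the 70 called: their median SE was 0.35 against 0.23, and their interactions ran from -1.36 to 0.70. A missed call among them does not show that the lines responded alike.

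Read within each slide, the same numbers give the knockdown difference under each treatment. For the 21 called above 0, the median Dicer minus control difference was 0.98 on the metformin slide and -0.73 on the vehicle slide. For the 49 called below 0 it was -0.40 on the metformin slide and 0.88 on the vehicle slide. The sign differed between treatments for 84 of the 98.

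For 15 of the 98 (15.3%, beside 11.5% of all tested), Dicer shRNA arrays lay above control shRNA arrays with metformin and below them with vehicle, without overlap in either. miR-21, miR-24, miR-100, miR-23a, miR-221 and miR-222 were among them. The opposite crossing, below with metformin and above with vehicle, was found for 26 (26.5%, beside 13.9%), with miR-1275, miR-320c, miR-630, miR-1181, miR-135a* and miR-939 among them. These counts move with the scaling: viral probe scaling gives 24 and 1, and quantile normalization gives 7 of the first kind.

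**Figure D5:**
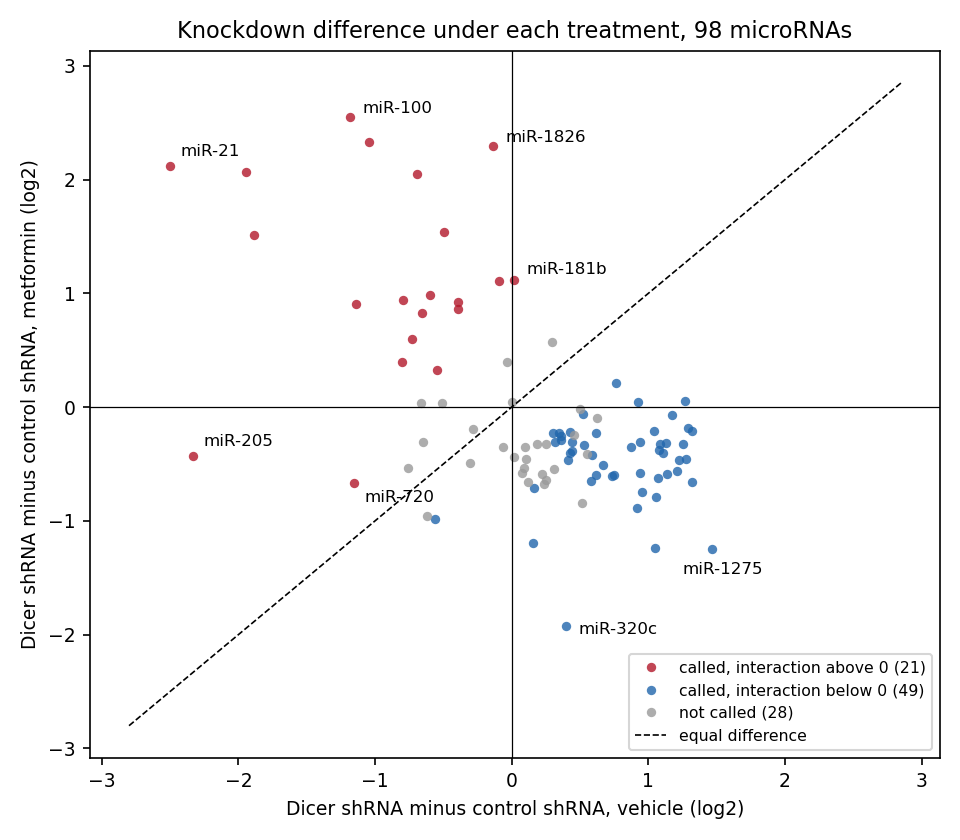
Dicer shRNA minus control shRNA difference (log2) with metformin on the y axis and with vehicle on the x axis, 1 point for each of 98 microRNAs, with the dashed line where both are equal. The 21 calls above 0 have medians of 0.98 (metformin) and -0.73 (vehicle) and the 49 below 0 medians of -0.40 and 0.88; signs are for 75th percentile scaling, and with viral probe scaling 52 are called above 0 and 4 below.

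Other features of the same arrays moved with the interaction. All 4 hur control features detected on every array had interactions above 0, with a median of 2.84 (0.56 to 3.65), and a median metformin difference of -0.999 in Dicer shRNA cells and -3.84 in control shRNA cells. All 10 viral microRNA probes detected on every array had interactions below 0, with a median of -1.32 (-2.74 to -0.77), and a median metformin difference of 0.34 in Dicer shRNA cells and 1.38 in control shRNA cells. Human microRNAs detected per array numbered 130 to 152 and 149 to 180 in Dicer shRNA cells with metformin and vehicle, and 151 to 163 and 176 to 204 in control shRNA cells with metformin and vehicle. The part of RNA quality, hybridisation or probe background in the interaction was not tested.

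The rule's edge was set by detection. Just inside it were miR-1236, let-7f-1*, miR-1224-3p and miR-550a, with lowest signals of 2.17 to 2.3. Just outside were 8 microRNAs detected on 11 of 12 arrays, among them let-7b, which was undetected on 1 control shRNA array with metformin and otherwise spanned 4.34 to 394. The others were miR-1246, miR-149, miR-370, miR-371-5p, miR-516a-5p, miR-520e and miR-634.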

How the data were processed

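RNA labelled with Cy3 was hybridised to Agilent microRNA arrays of 1 colour, per the labels, whose label protocol describes an mRNA kit. The authors' array files give each name's total gene signal (a linear intensity, per the file headers), the error of that signal and whether it was detected. Agilent Feature Extraction 9.1 is the tool listed by the submitters' processing notes. Undetected names hold 0.1. The authors also deposited log2 values for 221 microRNAs, of unstated normalization and centring, which served as an alternative. Precision is limited by having 3 arrays in each group.

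Each array was divided by a factor (0.869 to 1.20) that aligned its 75th percentile over the 98 microRNAs with detected signal on every array. Scaled signals under 3.01 (log2 1.59) were set to that floor before taking log2, which touched 9 values of 4 of the 98. The floor is the median, over arrays, of each array's 5th percentile among detected names. The 4 group means were fitted in limma 3.58.1 under R 4.3.3 with data.table version 1.17.8, by lmFit and eBayes, to 208 microRNAs, each detected throughout at least 1 group, leaving 8 residual degrees of freedom beside 1.85 from the prior. Calls had a Benjamini-Hochberg adjusted p under 0.05 over the 208. The interaction contrast was tested on simulated data first. Figures used Python 3.11.15, pandas 2.3.3 and matplotlib 3.10.9.

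The members and lists were chosen with earlier results of these data known. Named are the 14 highest and 10 lowest called interactions, set microRNAs such as miR-155, miR-494 and miR-923, up to 4 members of a list, the 6 nearest 0, and up to 6 crossing microRNAs in each direction. Further names, such as arm partners, members of a short count and exceptions to a count, were chosen after their values were seen. Version suffixes (on 4 of the 98) were dropped. RefSeq arms were matched by hand from the arrays' older names. Replicates correlated at 0.976 to 0.996 within groups over the 98, and no 2 arrays of the same group held identical values. Alternatives covered scaling, floor, filter, spread, replicate block, left-out arrays and the deposited log2 values.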

Additional observations from a re-analysis of the deposited data

Results flagged for a closer look

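The metformin difference of 70 microRNAs differed between Dicer shRNA and control shRNA cells by the interaction test itself, in limma at an adjusted p under 0.05. Above 0 on the log2 scale these include miR-21 (4.62), miR-24 (4.01), miR-100 (3.73), miR-23a (3.40), miR-221 (3.38), miR-222 (2.74), miR-1826 (2.43), miR-1287 (2.04), miR-1308 (2.03), miR-205 (1.90), miR-320d (1.74), miR-30a (1.58), miR-92a (1.485) and miR-1274a (1.33). Those below 0 include miR-663 (-1.70), miR-575 (-1.72), miR-671-5p (-1.73), miR-1915 (-1.77), miR-939 (-1.80), miR-135a* (-1.84), miR-1181 (-1.98), miR-630 (-2.29), miR-320c (-2.32) and miR-1275 (-2.71).

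Outside the human microRNAs, 10 viral microRNA probes gave a detected signal on all 12 arrays, in cells not described as infected with those viruses. Their signals ran up to 1230 for kshv-miR-K12-3, and their interactions were all below 0. The vehicle arrays of control shRNA cells also carried this signal.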

How the results depend on the processing

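Of the 15 alternatives that kept all 12 arrays, scaling changed the most. Viral probe scaling gave 52 calls above 0 and 4 below 0, and with no filter on undetected microRNAs, where p-values are adjusted over all 851 names, the calls below 0 were 31. Leaving out 1 array at a time gave 64 to 79 calls among the 98, 20 to 23 above 0, 44 to 58 below 0, and 145 to 164 of all tested. With the replicate block the counts were 71, with 21 above 0 and 50 below, and 159 of all tested. The numbers do not pair the samples, since 9 of 18 same-numbered pairs correlated above 0.1 (-0.268 to 0.688) and 5 of 12 arrays correlated best with their own number.

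Signs turned for microRNAs near 0 or under a scaling. No scaling, and the 75th percentile over all names, which fell on the undetected value and so changed nothing, put miR-1280 at 0.04. Quantile normalization put miR-923 at 0, miR-320b at -0.469, miR-1305 at -0.31, miR-1260 at -0.421 and miR-30d at -0.024. Viral probe scaling put miR-155 at 1.112, miR-923 at 0.671, miR-1280 at 1.348, miR-574-3p at 1.248, miR-320a at 0.954, miR-1224-3p at 0.201, miR-1274b at 1.203, miR-520b at 0.318, miR-134 at 0.287, miR-485-3p at 0.674, miR-191* at 0.693 and miR-877* at 0.727. Scaling to hur features, chosen after seeing the data, put miR-494 at -0.401, miR-320b at -0.629, miR-1305 at -0.592, miR-1260 at -0.454, miR-378 at -0.241 and miR-720 at -0.187. Array weights put miR-1305 at -0.269, and the series matrix put miR-1280 at 0.04 and miR-1274b at 0.243. Leaving out 1 array at a time, miR-320b ran from -0.067 to 0.14, turning without Dicer metformin replicate 2, Dicer vehicle replicate 3 or control vehicle replicate 1, while miR-1305 ran from -0.291 to 0.341 and miR-1280 from -0.306 to 0.023, both turning without Dicer vehicle replicate 1. Beyond the scalings' common shift, the cause was not tested.

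Of the 70 calls, 62 held without each array in turn. Those lost in at least 1 were miR-720, miR-155, miR-345, miR-1225-5p, miR-320a, miR-150*, miR-21* and miR-564. The lists that follow cover only the microRNAs named by rule, and leave out names chosen after their values were seen. Of the latter, miR-22 kept its call under 5 of the 6 other scalings, miR-21* under 3 and miR-1225-5p under 2. Among those named by rule, a setting other than viral probe scaling ended the call of miR-155, miR-320a, miR-923, miR-1224-3p, miR-720, miR-30d, miR-181b, miR-1226* or miR-134. Such a setting made a call for miR-494, miR-378, miR-1236, miR-877*, miR-1280, miR-574-3p, miR-320b, miR-485-3p or miR-1274b. On the linear scale, 97 of 98 kept their sign, the exception being miR-1305. Dim microRNAs, near the floor, limit the calls.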
